A study of Caenorhabditis elegans with 2 samples.

Results

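The cytochrome P450 and glutathione S-transferase (GST) genes of Caenorhabditis elegans were examined as targets of a GFP-tagged transcription factor, by the peaks that chromatin immunoprecipitation and sequencing (ChIP-seq) placed at their promoters. The members were all protein-coding genes whose symbol is cyp-, gst- or gsto- followed by a number, with any trailing letters or digits. This gave 121 of 19973 protein-coding genes, of which 74 were cyp, 44 gst and 3 gsto genes. RefSeq and Ensembl gave every member the same symbol, and 6 RefSeq pseudogenes with such symbols were left out. Membership rests on the gene names, since peak lists carry no expression or protein data against which to check a family.

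Both libraries came from whole worms of mixed sex at the L4 larval stage, as 2 biological replicates of 1 group. The strain was OP355, and the age was given as unknown. All of the material carried unc-119(tm4063) and the integrated transgene wgIs355, so there was no untagged or wild-type group among the samples. The labels disagree on the tagged protein: the strain and antibody fields name mdl-1, a Mad-type basic helix-loop-helix gene, whereas a description field names eGFP-ZK337.2. The mdl-1 promoter carried the rank 2 peak of the list (signal 1353, with 696 in replicate 1 and 659.9 in replicate 2), and the nearest P450 or GST gene start, that of cyp-43A1, lay 1028 kb from the mdl-1 start. The label describes an insertion targeting mdl-1, and the part of the transgene in this signal was not tested. The signal therefore does not settle which protein was tagged. Neither ZK337.2 (klu-1 in RefSeq) nor unc-119 had a promoter-window peak in the list thresholded by irreproducible discovery rate (IDR). Whole worms mix all cell types, so a peak cannot be assigned to a tissue, and peak lists hold no read counts, so depth is unknown.

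P450 enzymes are haem-containing monooxygenases of phase I detoxification, which add oxygen to lipophilic compounds, and some members act on fatty acids and sterols of the worm itself. GSTs are phase II enzymes that join glutathione to electrophiles, including the aldehydes left by lipid peroxidation. Many genes of both families are expressed in the intestine, the main detoxifying organ of the worm, where nuclear receptors, the stress factor SKN-1 and intestinal GATA factors are known to regulate them. Both families grew by tandem duplication, so that many members stand beside close relatives.

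A promoter window ran from 1000 bp upstream to 200 bp downstream of the annotated gene start (Ensembl, assembly ce11). "IDR peaks" are the 4293 peaks of the list that the authors thresholded by irreproducible discovery rate. They were the 4293 strongest peaks of the pooled list, so in effect they are a cut on pooled signal. The "pooled list" of 27577 peaks was called on both replicates together. It and the replicate lists are labelled as peaks and background for input to IDR, so they hold background as well as weak peaks. The deposited −log10 q of the strongest pooled summit in the window was 3.09 at gst-1, 0.12 at gst-4 and 0.02 at cyp-14A1. A pooled summit alone is therefore not read as binding. The lists of replicate 1 and replicate 2 hold 29572 and 28282 peaks. Signal is the peak caller's own value, on a scale that differs between pooled and single-replicate lists, so replicate values are set against each other and never against the pooled value.

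The sites below were chosen for their sequence, not for the strength of the peak. CACGTG, the E-box of Myc, Max and Mad family proteins, lay within 100 bp of 3 of the 15 member IDR summits. The capitals mark it in the 30 bases printed for each, 5′ to 3′ on the gene's strand (RefSeq WBcel235, the ce11 assembly).

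gst-42 (chrX:11727985-11728014, minus strand): atagtagaagacCACGTGtgtctgcacaat
gst-20 (chrII:13609808-13609837, minus strand): aagagacggagaCACGTGgcatgggaagta
cyp-32B1 (chrV:2201516-2201545, minus strand): ctcaaaaagcgaCACGTGtaatttagacat

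The site of gst-42 lay between genes, its first base at -66 bp relative to the gene start and 28 bp from the summit. That of gst-20 spanned the gene start, its first base at -1 bp, and was 5 bp from the summit. The site near cyp-32B1 began at -118 bp from that gene's start, inside the annotated 3′ UTR of its upstream neighbour cyp-33C12, and was 48 bp from the summit.

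Longer stretches around other summits, up to 100 bases to either side and cut at annotated exons, show promoters without an E-box. In these, capitals mark GAGAGA, the motif TTGTCAT and the motif TGATAA on either strand, so that a reverse complement is also in capitals. The GST promoters of gst-7, gst-13 and gst-5 each held both GAGAGA and TTGTCAT, a core that the SKN-1 consensus allows. The stretch of gst-5 surrounds a pooled summit, since that gene had no IDR summit. Among the GST genes with an IDR summit in the window, TTGTCAT lay within 100 bp of it at gst-7 and gst-13 only.

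gst-7 (chrII:4881866-4882061, plus strand): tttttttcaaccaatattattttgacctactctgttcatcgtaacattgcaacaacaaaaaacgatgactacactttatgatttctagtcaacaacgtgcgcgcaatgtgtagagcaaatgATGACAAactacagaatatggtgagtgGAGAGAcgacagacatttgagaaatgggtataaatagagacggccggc
gst-13 (chrII:9231322-9231456, plus strand): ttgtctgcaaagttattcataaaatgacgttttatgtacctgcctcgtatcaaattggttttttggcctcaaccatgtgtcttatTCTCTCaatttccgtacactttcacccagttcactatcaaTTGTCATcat
gst-5 (chrII:10950209-10950351, plus strand): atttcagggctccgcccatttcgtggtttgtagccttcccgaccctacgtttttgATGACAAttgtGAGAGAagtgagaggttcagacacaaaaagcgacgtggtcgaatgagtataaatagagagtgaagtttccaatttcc

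Among the P450 promoters, cyp-29A2 held 2 copies of GAGAGA, cyp-13A8 held 1, and the stretch between cyp-33C6 and cyp-33C7 held none of the motifs searched.

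cyp-29A2 (chrV:11217482-11217582, plus strand): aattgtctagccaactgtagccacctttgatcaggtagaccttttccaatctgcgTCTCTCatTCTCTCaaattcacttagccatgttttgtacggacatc
cyp-13A8 (chrII:9807648-9807848, minus strand): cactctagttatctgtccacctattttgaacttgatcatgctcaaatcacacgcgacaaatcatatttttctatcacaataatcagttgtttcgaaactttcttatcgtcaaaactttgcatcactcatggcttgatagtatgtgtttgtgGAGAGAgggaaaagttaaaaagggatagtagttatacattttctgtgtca
cyp-33C7 (chrV:2250212-2250412, plus strand): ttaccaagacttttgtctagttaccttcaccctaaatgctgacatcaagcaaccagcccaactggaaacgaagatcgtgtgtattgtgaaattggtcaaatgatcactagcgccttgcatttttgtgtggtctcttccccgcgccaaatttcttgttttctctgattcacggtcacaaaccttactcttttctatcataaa

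IDR peaks stood at few of these promoters, at about the share found over all genes. Summits of the pooled list, which also holds background, stood at more of them. An IDR summit lay in the window of 16 of the 121 members (13.2%), against 10.9% of all protein-coding genes, a share near the background. These were 11 of 74 P450 genes (14.9%) and 5 of 47 GST genes (10.6%), all of the latter gst genes. On the pooled list, 71 members (58.7%) had a summit in the window, against 38.9% of all coding genes. Those were 40 P450 genes (54.1%) and 31 of the 47 GST genes. The list of replicate 1 had a summit for 67 members (55.4%, against 40.6% of all coding genes) and that of replicate 2 for 66 (54.5%, against 39.7%). Both replicates' own lists held a summit in the window of 47 members (38.8%, against 28.7% of all coding genes). Neighbouring members can share a peak and a duplicated sequence, so the members are not independent of each other and no test was made on these shares.

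**Figure D1:**
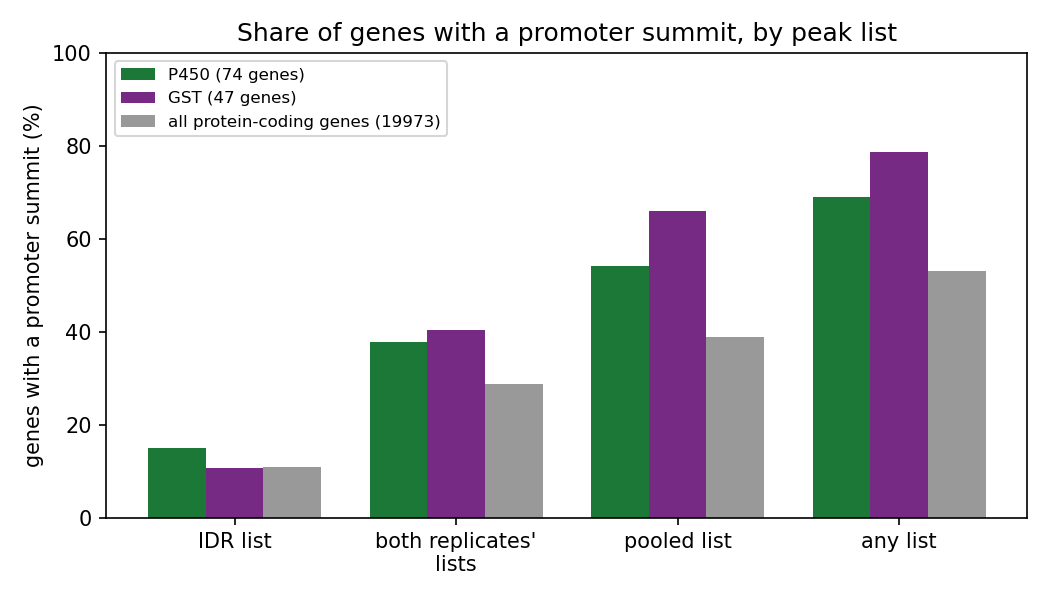
Share of genes with a peak summit in the promoter window (vertical axis, %) for 74 P450 genes, 47 GST genes and all 19973 protein-coding genes, by peak list (horizontal axis). The IDR bars stand close together at 14.9, 10.6 and 10.9%, and on the pooled list both families are above all coding genes.

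Every member falls into 1 of 4 classes. An IDR summit was present for 16, a pooled summit without an IDR summit for 55, a summit in 1 or both replicates' lists but not the pooled list for 17, and none in any list for 33. Of the 71 members with a pooled summit, 46 also had a summit in both replicates' windows, 11 in that of replicate 1 only, 12 in that of replicate 2 only and 2 in neither. Over all coding genes, 53.1% had a summit in some list, against 72.7% of members.

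The strongest promoter peaks belonged to a pair of GST genes that both carry the E-box. gst-42, which encodes the worm's maleylacetoacetate isomerase of tyrosine breakdown, a zeta-class GST (WBGene00001790, chrX:11726264-11727936, minus strand), had its peak at chrX:11727862-11728077. Its signal was 259 (rank 201 of the 4293 IDR peaks). Replicate 1 gave 100.8 and replicate 2 gave 159, and the summit lay at -33 bp from the start. Replicate 2 gave the higher value here. The gap of 214 bp to the divergent gene D1053.2 places this peak in both genes' windows, so it cannot be given to gst-42 alone.

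gst-20 (WBGene00001768, chrII:13608154-13609824, minus strand) followed with a signal of 152 and rank 643. Its peak at chrII:13609747-13609860 was 92.9 in replicate 1 and 63.4 in replicate 2, higher in replicate 1, with the summit at -6 bp from the start. No other coding gene had this summit in its window.

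The other bound GST genes had signals near the middle of the IDR list, whose median is 75.0. The peak of gst-7 (chrII:4882062-4883358, plus strand) reached 79.2, and replicates 1 and 2 gave 48.4 and 33.2. gst-13 (chrII:9231457-9232344, plus strand) had 71.5, with 37.5 and 31.8 in replicates 1 and 2. For gst-27 (chrII:15164890-15165731, minus strand) the signal was 68.9, with 36.2 and 27.9. Replicate 1 was the higher in all 3. Their summits lay at -96, -35 and -343 bp from the starts, and that of gst-27 fell between it and gst-28, which starts on the same strand beyond it.

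Among the P450 genes, the strongest promoter peak lay between cyp-33C6 and cyp-33C7, divergent neighbours of the large cyp-33 group. The peak at chrV:2250114-2250509 reached 100.8 (rank 1355), while replicates 1 and 2 gave 60.7 and 38.4. Its summit was at -228 bp from the start of cyp-33C7 and -902 bp from that of cyp-33C6, so that cyp-33C6 was no longer bound with a shorter window or with each peak given to the nearest start alone. The 16 bound members therefore rest on 15 distinct peaks.

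The cyp-13A genes, relatives of the drug-metabolising CYP3 enzymes of mammals, gave 3 of the bound P450 genes. The peak at cyp-13A8 reached 96.8, and replicates 1 and 2 were nearly equal at 46.3 and 47.3. cyp-13A5 had 71.6, with 23.7 and 47.7 for replicates 1 and 2, a ratio further from 1 than that of any other bound member. cyp-13A2 had 54.9, with 31.2 and 24.4, and its summit lay 65 bp downstream of the start, the lone bound member with a summit inside the gene.

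The remaining bound P450 genes were 6 in number and all under the median of the IDR list. The peak at cyp-29A2 reached 74.6, with replicates 1 and 2 at 45.9 and 31.8. cyp-33A1 had 58.2, with 35.1 and 23.9, and cyp-34A8 had 56.4, with 25.3 and 32.3. These values come from genes on chromosome V that are not next to each other. cyp-43A1, on the X chromosome, had 54.2, with 21.9 and 30.6. cyp-32B1 had 51.7, with 30.2 and 20.4, and cyp-33C9 had 51.0, with 21.3 and 29.3. The weaker replicate of each of these last 3 fell below the 4293 strongest peaks of its own list, whose lowest signals were 24.5 in replicate 1 and 23.4 in replicate 2.

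**Figure D2:**
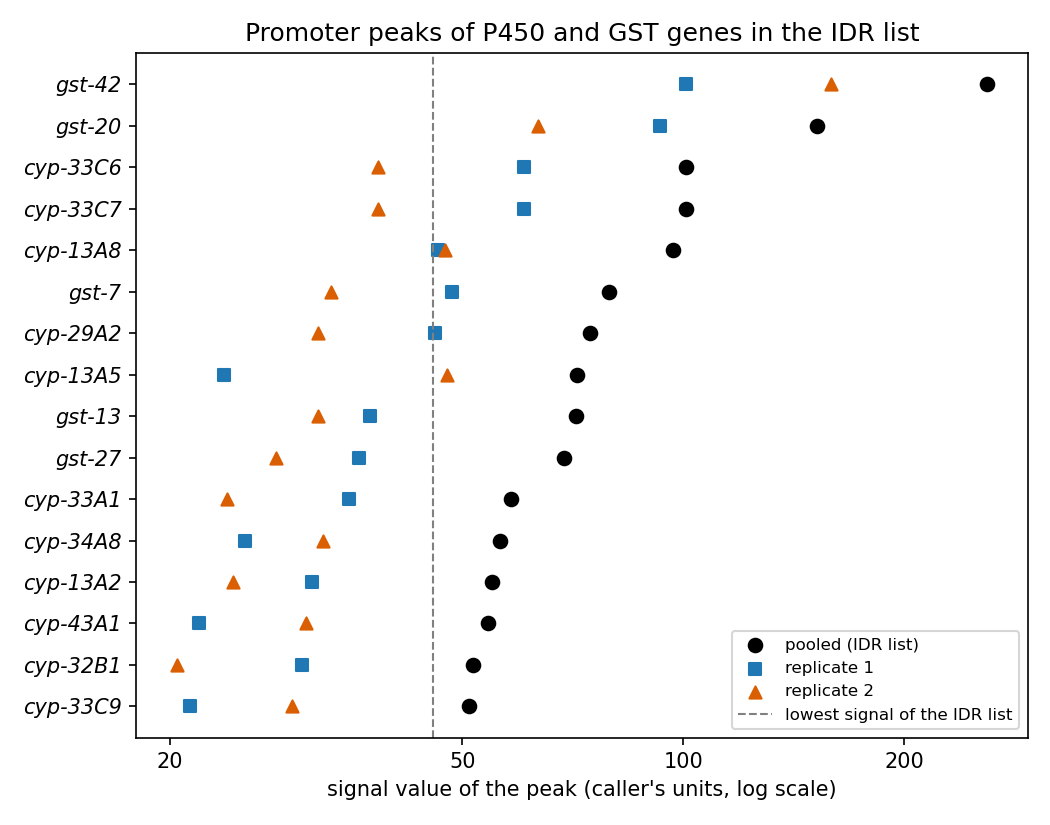
Signal of the promoter peak (horizontal axis, caller's units on a log scale) of the 16 bound members (vertical axis), as black circles for the pooled value in the IDR list, squares for replicate 1 and triangles for replicate 2. The dashed line is the lowest signal of the IDR list, 45.6, and applies to the black circles only, of which gst-42 at 259 and gst-20 at 152 stand highest.

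The replicates' signals at the bound members' peaks were set against each other. Over the 15 distinct peaks log2 of replicate 1 over replicate 2 was centred on 0.36 (median; SD 0.55), and replicate 1 was higher at 9 of them. Over all coding genes, 1761 of 1774 promoter IDR peaks overlapped a peak in both replicates' lists, and the median log2 there was 0.08 (SD 0.56). Spearman's rho between the replicates was 0.57 over the members' peaks and 0.72 over all of them, given across peaks as a description. Each replicate's own strongest 4293 peaks put a summit at 16 members (replicate 1) and 17 members (replicate 2), against 10.6% and 10.7% of all coding genes, and 12 of the 16 bound members were in both. The exceptions were cyp-13A5, cyp-33C9 and cyp-43A1, which replicate 1's strongest peaks missed, and cyp-32B1, which replicate 2's missed.

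Just below the IDR list stood several GST genes. Of the 10 members with the strongest pooled summit but no IDR summit, 8 were gst genes. Those genes made up 44 of the 121 members and 29 of the 71 with a pooled summit. The cut at 10 was set by the rule for named genes. gst-1, a pi-class GST, had a pooled signal of 45.3, just under the lowest IDR signal of 45.6, and replicates 1 and 2 gave 25.1 and 21.8. gst-5, which conjugates the lipid aldehyde 4-hydroxynonenal, had 43.6, with 23.002 and 20.005. Both had a similar value in each replicate. gst-44 had 44.3, with no summit in the window in replicate 1 and 17.95 in replicate 2. gst-43 had 41.7, with 18.02 and 26.6, and shared the peak with the divergent gene copa-1. The replicates of gst-36 (40.6), cyp-33C4 (40.2) and gst-33 (39.8) were further apart, at 29.9 and 12.02, 27.4 and 12.5, and 10.8 and 24.9. cyp-37B1 (39.0), gst-9 (38.5) and gst-28 (38.4) closed the group, with 18.7 and 20.7, 17.9 and 19.3, and 18.5 and 22.8.

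Members known from work on detoxification or lipid metabolism ranged from an IDR peak to none. Of 25 such genes, a list chosen with earlier results of these data known, 2 had an IDR summit (gst-7 and cyp-43A1), against 10.9% of all coding genes, and 19 had a pooled summit, against 38.9%. Among the GST genes of that list, gst-1 and gst-5 are described above. gst-4, the standard reporter gene of SKN-1 activity (chrIV:10142225-10143099, plus strand), had a pooled signal of 14.1, with 11.4 in replicate 1 and no summit in the window in replicate 2. Its summit lay on the annotated start and also fell in the windows of gst-2 and dhs-12. gst-38 had a pooled signal of 35.7, with 8.97 and 22.3, and gst-24 had 16.2, with 7.91 and 9.36. gst-10, which like gst-5 removes 4-hydroxynonenal, had no summit in any list. No 31-base word of its window occurs once in the genome, so that reads there cannot be placed uniquely at that length; its part in this result was not tested. Of the omega-class genes, gsto-1 had no summit in any list, and gsto-2 and gsto-3 had pooled signals of 11.99 and 11.2 with a summit in replicate 2 alone, of 11.3 and 8.26.

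Among the P450 genes of that list, 1 of 15 had an IDR summit and 11 a pooled summit. None of the 10 cyp-35 genes, which are known to respond to xenobiotics and to affect fat stores, had an IDR summit, and 2 had a pooled summit, where the shares of all coding genes were 10.9% and 38.9%. cyp-35A2 had a pooled signal of 16.2 at -989 bp, in a peak shared with the divergent gene exc-13. At that peak replicate 1 had 6.55 and replicate 2 had no peak. Elsewhere in the window, replicate 2 had a summit of 16.2 at -142 bp and replicate 1 a summit of 8.38 at -817 bp. cyp-35B1, a target of DAF-16, had 14.4 with a summit in replicate 2 alone. cyp-13A7, which rifampicin induces, had 17.9 in a peak shared with cyp-13A6. cyp-29A3 and cyp-33E2, which act on eicosanoids, had 23.99 and 18.9. cyp-34A9 had 28.1 and cyp-25A1 13.2. The cyp-31A genes, which act in making the eggshell's lipid barrier, had no pooled summit in any of 3 members, and cyp-42A1 and the mitochondrial P450 gene cyp-44A1 had no summit in any list. The 5 cyp-14 genes held no IDR summit, and cyp-14A1 had a pooled signal of 10.7 with no summit in either replicate's window.

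Some strong peaks near P450 genes lay outside the promoter windows. In an intron of cyp-36A1, a gene that acts downstream of the hypoxia factor HIF-1, a peak 1470 bp downstream of the start reached 284 (rank 162), and replicates 1 and 2 gave 138 and 147. This exceeded every promoter peak of the 121 members, and the promoter window of cyp-36A1 itself held only a pooled signal of 22.5. A peak of 336.8 (rank 111; 186 and 149 in replicates 1 and 2) lay between genes at -2009 bp from the start of cyp-14A5. Both carried CACGTG within 100 bp of the summit. An intronic peak of cyp-13A3 had 104, with 58.4 and 43.9, and no CACGTG. In all, 3 members (2.48%) had an IDR summit in the gene body beyond the window, against 4.34% of all coding genes, and that in cyp-33C12 was the promoter peak of cyp-32B1. cyp-14A5 and cyp-13A3 were named after their values were seen.

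Summits sat close to the annotated start at these genes. Of the 71 members with a pooled summit, the strongest summit lay within 100 bp of the start for 31 (43.7%), against 20.02% of the 7776 coding genes with one. Among the 16 with an IDR summit this held for 9 (56.3%), against 18.1% of 2185 coding genes, and the median position was -97.5 bp against -252 bp. The median gap to the next coding gene upstream was 870 bp for members and 937 bp for all coding genes. Many worm transcripts are trans-spliced, so an annotated start need not be where transcription begins. These comparisons are descriptions without a test.

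**Figure D3:**
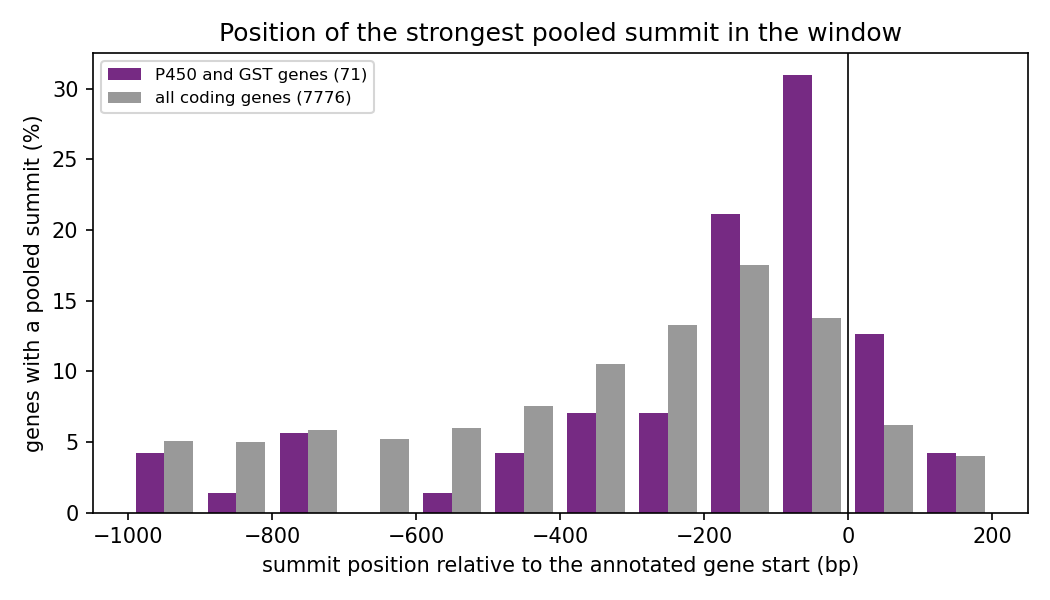
Position of the strongest pooled summit relative to the annotated gene start (horizontal axis, bp in bins of 100, negative values upstream) as a share of the genes with such a summit (vertical axis, %), for 71 P450 and GST genes and 7776 protein-coding genes. The bin just upstream of the start holds 31.0% of members and 13.8% of all coding genes.

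Within tandem runs of related genes, peaks varied from gene to gene. The counts below stand against 10.9% of all coding genes with an IDR summit and 38.9% with a pooled summit. All 8 cyp-13A genes of a run on chromosome II (chrII:9779181-9807569) had a pooled summit, 7 of them a summit in both replicates, and 3 an IDR summit. The pooled signals ran from 15.9 at cyp-13A4 to 96.8 at cyp-13A8. In a run of 6 cyp-34A genes (chrV:3955701-3972991) the bound cyp-34A8 stood between cyp-34A9 with 28.1 and cyp-34A7 with no pooled summit. gst-20 was the lone bound gene of a run of 9 GST genes (chrII:13608154-13630887), where the pooled signals of the others ran up to 16.2. A further IDR peak of this run (signal 69.3, 39.96 and 33.7 in the replicates, with CACGTG) lay between gst-15 and gst-14, beyond either window. In a second GST run (chrII:15163817-15185389), 1 of 9 members was bound and 4 had a pooled summit.

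**Figure D4:**
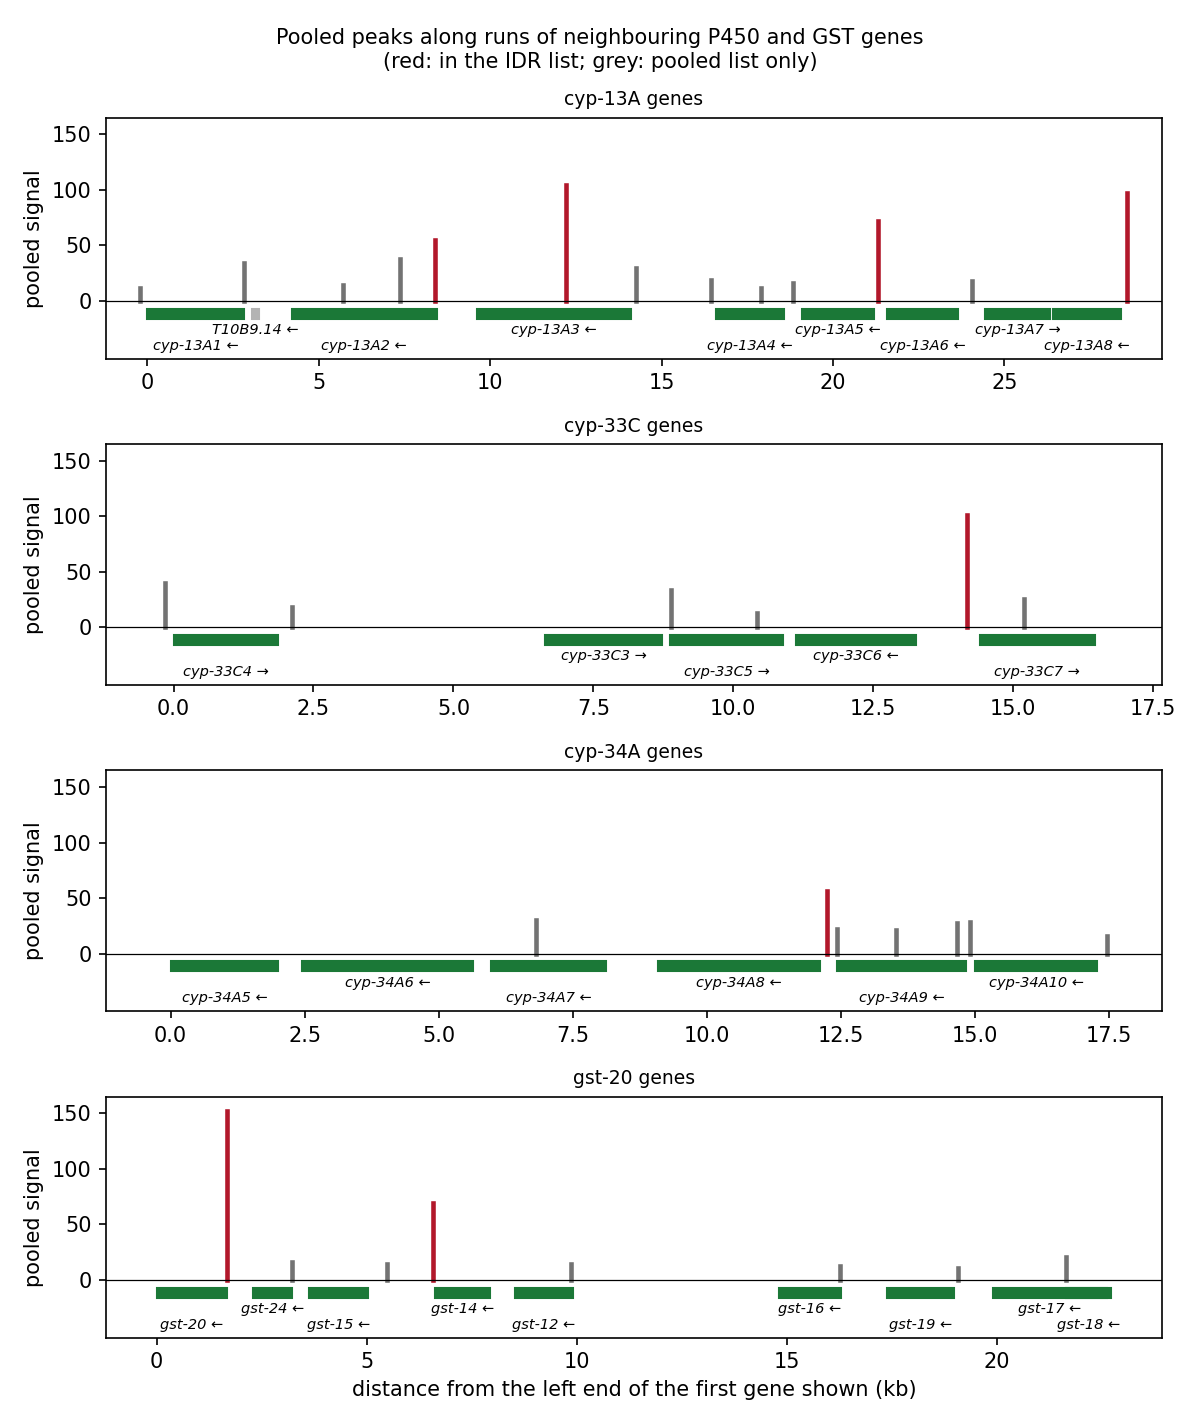
Pooled peak signal (vertical axes) along 4 runs of neighbouring genes, with the horizontal axes giving the distance in kb from the left end of the first gene shown. Bars stand at the summits, red for IDR peaks and grey for others, green boxes are P450 and GST genes and grey boxes other genes, and arrows give the strand. In the lower panels, the IDR peak at gst-20 stands at 152 and that at cyp-34A8 at 56.4, and the cyp-13A run holds 4 IDR peaks.

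Near-identical copies limit where reads can be placed, and this differed among the members. The share of a window's 31-base words that occur once in the genome was under 90% for 23 of the 121 members (19.0%) and for 14.6% of all coding genes. It was under 90% for 11 of the 33 members with no summit in any list (33.3%), and for 22.3% of the 9377 coding genes with none. Among the 16 bound members it was under 90% for cyp-13A8 alone, at 51.0%. After gst-10, the lowest values were 21.3% at gst-39 and 30.5% at cyp-25A6, neither with a summit in any list. The value at gst-28 was 52.7%. Without windows under 90%, 15 of 98 members (15.3%) were bound against 12.02% of coding genes, and 63.3% had a pooled summit against 42.3%, a setting chosen after seeing the data. The sources used here do not state the read length. The part of non-unique sequence in the missing peaks was not tested.

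Bound members lay on 3 chromosomes. Chromosome II held 7 bound of 37 members (coding genes there, 10.3%), chromosome V 7 of 50 (8.37%) and X 2 of 10 (15.2%). None of the 3 members on chromosome I, 10 on III and 11 on IV was bound, where 11.3%, 13.3% and 9.78% of coding genes were.

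The families differed in the share of windows with TTGTCAT. It stood on either strand in the windows of 28 of the 47 GST genes (59.6%) and 13 of the 74 P450 genes (17.6%), against 23.3% of all coding genes. Among GST genes, 18 of the 28 with it (64.3%) and 13 of the 19 without it (68.4%) had a pooled summit. An IDR summit was present for 4 of those 28 (14.3%) and 1 of those 19 (5.26%). Over all coding genes, 38.3% with it and 39.1% without it had a pooled summit, and 10.8% and 11.0% an IDR summit. TGATAA, a form of the site of GATA factors, stood in 75.2% of member windows and 72.0% of all. CACGTG stood in 16.5% against 18.4%, and GAGAGA in 47.9% against 50.9%. GAGAGA stood in the windows of 14 of the 16 bound members (87.5%), and in 66.5% of those of all bound coding genes. TGATAA went the other way, in 9 of those 16 windows (56.25%) against 71.8% of those of all bound coding genes. In the same comparison TTGTCAT stood in 6 (37.5%, against 23.02%) and CACGTG in 4 (25%, against 27.9%). Adjacent windows can overlap and duplicated genes share sequence, so these counts are descriptions.

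At the summits themselves, CACGTG lay within 100 bp of 3 of the 15 member IDR summits, against 16.4% of the 1844 IDR summits in coding promoter windows. GAGAGA lay near 9 of 15 (against 40.3%), TGATAA near 4 (26.7%, against 23.2%) and TTGTCAT near 2 (13.3%, against 4.34%), those of gst-7 and gst-13. The E-box peaks held the highest and nearly the lowest signal of the bound members, 259 at gst-42 and 51.7 at cyp-32B1. At 78 pooled summits of members, 7.69% had CACGTG nearby, against 7.33% over all coding genes.

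Other genes of the pathway were counted on lists taken from knowledge of detoxification, each read against 10.9% of all coding genes. Of 18 regulators 5 were bound (27.8%). The strongest was wdr-23, which encodes the repressor of SKN-1, with a signal of 287 (137 and 151 in the replicates). Next to it stood nhr-49 (185), daf-16 (142) and aha-1 (122), the partner of the aryl hydrocarbon receptor. skn-1 itself had no IDR summit in the window. Of the 17 glutathione genes found 4 were bound (23.5%): the kappa-class GST genes gstk-1 (86.9) and gstk-2 (49.6) and the glutathione peroxidase genes gpx-6 (73.5) and gpx-5 (59.9). Of 6 genes on a list of P450 partners and P450 genes with other names, only cytb-5.1 was bound (117, with 49.2 and 66.9). It encodes a cytochrome b5 that passes electrons to P450s.

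Other enzyme and transporter families were counted in the same way, by gene symbol. UDP-glucuronosyltransferases, phase II enzymes which attach a sugar group, were bound in 5 of 67 cases (7.46%), led by ugt-20 (122) and ugt-49 (97.7), and 65.7% had a pooled summit. Short-chain dehydrogenases were bound in 6 of 30 cases, led by dhs-28 (87.0), an enzyme of peroxisomal fatty acid shortening in ascaroside synthesis, and dhs-30 (83.2). Transporter genes with the symbols pgp-, mrp- or haf- were bound in 3 of 30 cases, mrp-2 (83.1), mrp-3 (62.0) and haf-3 (54.6). Not all of these need export foreign compounds. Pooled summits stood at 63.3% of the dehydrogenase genes and 15 of the 30 transporter genes, against 38.9% of all coding genes.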

How the data were processed

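Transcription factor ChIP-seq of 2 biological replicates of 1 group was read from 4 deposited ce11 peak lists: each replicate's, the pooled list and the IDR list. The deposited signal of each peak is the caller's value, and the deposited −log10 q of each peak was used only for description. Per the deposited file descriptions, replicate and pooled lists were made from alignments and a further file that also made the control-normalized tracks, and the IDR list from those lists. For the caller, aligner, versions, depth and IDR threshold, details were not given in the sources used here. All 4293 IDR peaks stood unchanged in the pooled list and were its strongest 4293, and no peak ended beyond a WBcel235 chromosome. The ce10 lists were not used.

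Gene starts came from Ensembl release 115 and symbols from RefSeq by WormBase identifier (19965 of 19973 coding genes). A replicate value is that of its strongest peak with a summit in the window, or, for gst-36 and cyp-35A2, where that was another peak, of the peak overlapping the pooled peak. Motifs were searched on both strands, and words of 31 bases were counted over the nuclear genome. No test was made, since there is 1 group and the members share peaks. Window assignment, motif and word counts were checked on simulated data. Alternatives are given in the closing section. Python 3.11.15, numpy 2.4.6, pandas 2.3.3 and matplotlib 3.10.9 were used.

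The members, lists and rules were chosen with earlier results of these data known. The rule for named genes took every member with an IDR summit, the 10 with the strongest pooled summit without one, a list of well-known members, their neighbours in shared peaks, the genes the labels name, and up to 4 bound genes of each pathway list. Other genes (such as gst-8, gst-14, gst-15, gst-26, gst-39, cyp-13A4, cyp-14A5, cyp-25A6, cyp-33C12 and cyp-34A7) were named after their values were seen.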

Additional observations from a re-analysis of the deposited data

How the results depend on the processing

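The counts of bound members moved by at most 1.5 times under most alternatives. When only the stronger peaks of each list (signal no lower than its median) were kept, 6 members kept an IDR summit (3 P450 and 3 GST genes) and 45 a pooled summit, while the share of all coding genes fell to 5.62% and 26.6%. With a window reaching 2000 bp upstream, 8 GST genes and 19 members were bound, since gst-8, gst-15 and gst-26 entered, while the share of all coding genes rose to 14.7%. Shorter windows (500 bp upstream), midpoints, nearest starts, 1 bp of overlap, RefSeq starts and windows with at least 90% unique words gave 15 or 16 bound members, where all coding genes gave between 8.54% (500 bp) and 12.02% (unique words), and cyp-33C6 was the one lost with the short window and the nearest start. Without replicate 1 or without replicate 2, the remaining replicate's own strongest peaks, as many as the IDR list holds, stood in for that list. They put a summit at 17 and 16 members, against 10.7% and 10.6% of all coding genes. Of these members, 10 and 9 were P450 genes and 7 and 7 GST genes. Any summit of the remaining replicate's full list stood at 66 and 67 members, against 39.7% and 40.6% of all coding genes. CACGTG within 50 bp or 200 bp of a member IDR summit was found at 2 and 3 summits. No paired analysis was possible because the series has a single group. The peak lists give no read depth, so the part of depth in a missing peak was not tested.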
